A study of Procambarus clarkii with 12 samples.

Results

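A group of 117 gene clusters was lower in all 9 libraries from cadmium-exposed crayfish than in any of the 3 control libraries. They were selected from 176325 clusters listed in every library of the hepatopancreas of male red swamp crayfish (Procambarus clarkii). Levels are given as CPM, the estimated count of a cluster divided by its library's total and scaled by the same factor in every library. A cluster was a member when its mean over 12 libraries lay from 5 to under 1000 CPM, its highest cadmium library lay below its lowest control, and the mean log2(CPM + 1) of the controls exceeded that of the cadmium libraries by at least 1. Of 12004 clusters in that CPM range, 169 (1.41%) had every cadmium library below every control, and 117 (0.975%) also met the difference. The mirrored rule, with every cadmium library above every control, was met by 85 clusters (0.708%). Because the members were chosen by their levels in controls and cadmium libraries, those levels are described and not tested.

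All animals were male. Controls received 0 mg/L cadmium and the other groups 2, 5 or 10 mg/L, each for 72 h and with 3 libraries. Pooling of animals is not described, so the p-values below cover the variation among these libraries, which may be technical. In bulk tissue, fewer cells of a type and less RNA per cell cannot be told apart. The hepatopancreas is the digestive gland of crustaceans. It secretes digestive enzymes, absorbs and stores nutrients and is a main site where metals accumulate. Cadmium is a toxic metal that binds thiol groups of proteins and competes with zinc and calcium. In many animals cells respond to it with metallothioneins, small cysteine-rich proteins that bind metal ions.

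Clusters carry identifiers without gene names, and 0 of them could be matched to the RefSeq gene table used here. No function can therefore be given for a member, and markers of the labelled tissue could not be checked. Members are called by their rank in mean control CPM, from rank 1 to rank 117, and 4 are also given by identifier. A rank by CPM follows reads and not transcripts, since longer sequences give more reads. Library totals ran from 15835744 to 21653867 counts, and those at 2 and 10 mg/L were below all others, so depth cannot be told apart from those groups. A count of 0 allows up to 0.139 to 0.189 CPM per library (a limit of 3 counts, for counting error only).

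The members together held 1.01%, 0.830% and 1.12% of all counts in control replicates 1 to 3. In the 2 mg/L replicates they held 0.422%, 0.286% and 0.173%, and in the 5 mg/L replicates 0.399%, 0.183% and 0.290%. In the 10 mg/L replicates they held 0.169%, 0.187% and 0.252%. The highest cadmium library, 2 mg/L replicate 1, held 0.422%, while every control held 0.830% or more. Summed levels were 9864 ± 1454 CPM in the controls and, in order of dose, 2936 ± 1243, 2909 ± 1082 and 2027 ± 436 CPM in the cadmium groups (SD, n = 3 each). The member of rank 1 made up a good part of these sums. Without it they were 7886 ± 1216, 2440 ± 769, 2078 ± 734 and 1858 ± 329 CPM in the same order (SD, n = 3 each).

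**Figure D1:**
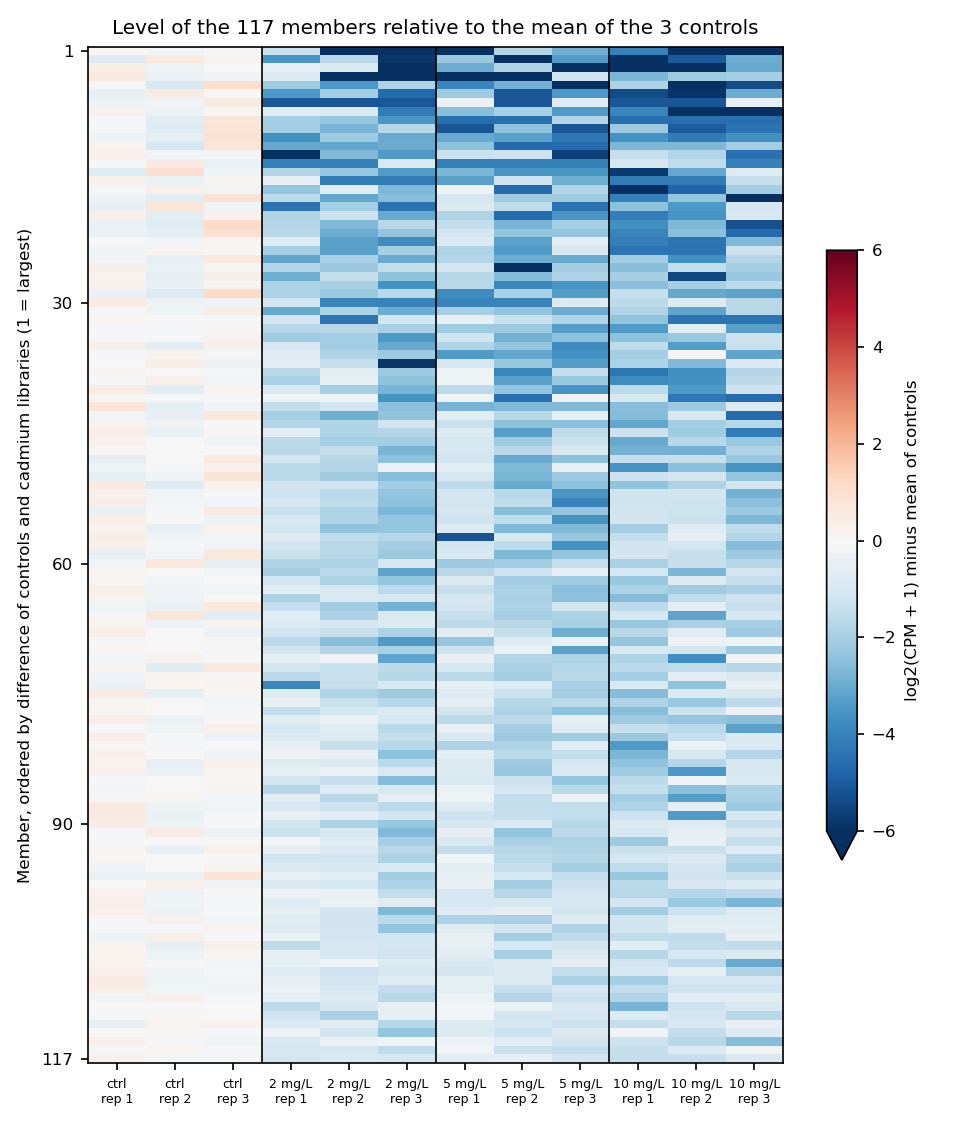
Level of each member (rows, ordered by the difference of controls and cadmium libraries) in each library (columns), as log2(CPM + 1) minus the mean of the 3 controls; the lowest values share the darkest blue. Deep blue cells at the top, where differences reach 4.53, are scattered over libraries of all 3 doses, while the lower rows, with differences near 1, are mostly pale.

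Differences between controls and cadmium libraries, as the mean of log2(CPM + 1), ran from 1.002 to 4.53 over the members, with a median of 1.77. The median over all clusters in the CPM range was -0.06. The difference was under 1.5 in 45 members, from 1.5 to under 2 in 29, from 2 to under 3 in 29, from 3 to under 4 in 11 and at least 4 in 3. Control means ran from 8.44 to 1978 CPM with a median of 29.7, and 21 members had 100 CPM or more. Means over the 9 cadmium libraries ran from 1.55 to 498 CPM with a median of 8.23. The ratio of the control mean to the cadmium mean had a median of 3.31 and ran from 1.93 to 16.9.

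The margin between the groups was often narrow. The lowest control divided by the highest cadmium library gave a median of 1.26. It was under 1.1 in 31 members, at least 1.5 in 31 and at least 2 in 12. The member nearest to overlap, rank 19, had 57.66 CPM in its lowest control and 57.64 CPM in 10 mg/L replicate 3. The cluster just outside had 25.74 CPM in its lowest control and 25.78 CPM in its highest cadmium library. In all, 945 clusters in the CPM range had a difference of at least 1 and failed only through overlap. At the threshold on the difference, the member nearest to it had 1.002 and the nearest cluster outside 0.997, and 52 clusters failed by the difference alone. At the lower bound on the mean, 5.01 CPM was inside and 4.98 CPM outside, and 218 clusters failed by that bound alone. At the upper bound the highest member had a mean of 868 CPM and the nearest of 3 clusters outside had 1417 CPM.

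**Figure D2:**
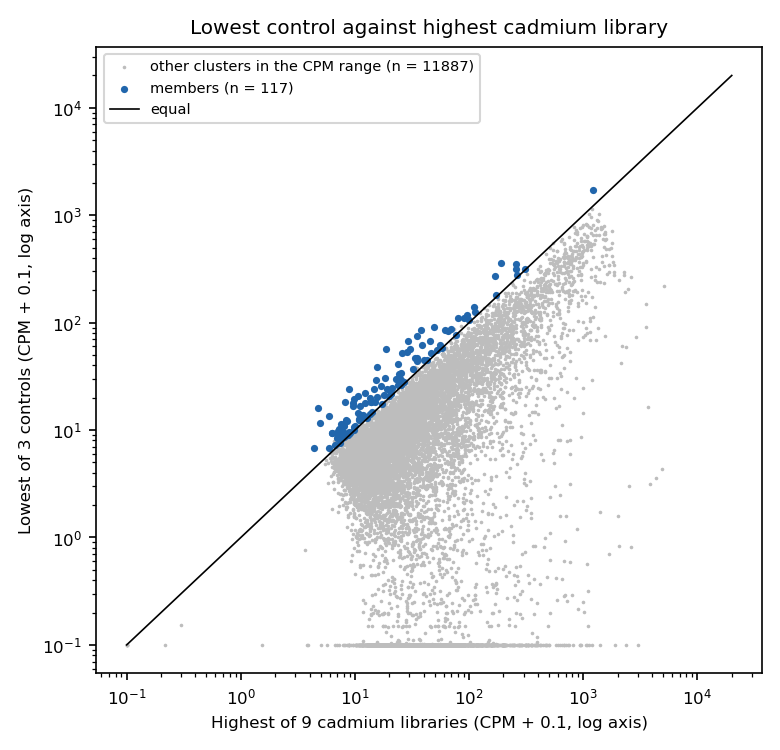
Highest of the 9 cadmium libraries (horizontal) against the lowest of the 3 controls (vertical), in CPM + 0.1 on log axes, for the 117 members (blue) and the other clusters in the CPM range (grey); the line marks equal values. Members lie above the line, most of them close to it, with a median ratio of 1.26 and a highest ratio of 3.42.

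In every library, the member nearest to overlap (rank 19) had 57.7, 201 and 83.1 CPM in the controls and 28.3, 19.5 and 8.77 CPM with 2 mg/L. With 5 mg/L it had 13.8, 7.87 and 7.73 CPM, and with 10 mg/L 0.87, 10.9 and 57.6 CPM, so 1 library decided its margin. Just outside, the cluster failing by overlap had 41.0, 25.7 and 32.4 CPM in the controls, and its cadmium libraries lay from 0 to 25.8 CPM. Nearest to the threshold on the difference, rank 77 had 23.9, 18.2 and 18.5 CPM in the controls and 8.84, 10.1 and 8.98 CPM with 2 mg/L. With 5 mg/L it had 12.7, 13.8 and 8.47 CPM, and with 10 mg/L 6.90, 7.16 and 10.6 CPM, so the cadmium libraries lay within 6.90 to 13.8 CPM. Nearest to the lower CPM bound, rank 107 had 14.3, 9.20 and 9.49 CPM in the controls and 6.25, 5.32 and 2.97 CPM with 2 mg/L. With 5 mg/L it had 3.50, 2.17 and 1.1 CPM, and with 10 mg/L 2.11, 1.71 and 2.01 CPM.

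The 5 members with the most reads in the controls had 369 to 1978 CPM there. The member of rank 1 had 2002, 1728 and 2204 CPM in the controls and 1138, 203 and 146 CPM at 2 mg/L. At 5 mg/L it had 1071, 211 and 1210 CPM, and at 10 mg/L 113, 92.6 and 300 CPM. 2 mg/L replicate 1 and 5 mg/L replicates 1 and 3 were therefore above 1000 CPM, and the other 6 cadmium libraries were at 300 CPM or less. Its deposited FPKM, a level scaled by sequence length and depth, was 1690 ± 192 in the controls (SD, n = 3).

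Rank 2 had 646, 356 and 1436 CPM in the controls and 156, 62.5 and 186 CPM at 2 mg/L. At 5 mg/L it had 44.7, 93.3 and 7.57 CPM, and at 10 mg/L 190, 3.01 and 15.6 CPM. Its controls spread as widely as 356 to 1436 CPM, and its highest cadmium library, at 190 CPM, lay below them as the rule asks. Rank 3 had 438, 348 and 990 CPM in the controls and 176, 60.9 and 90.3 CPM with 2 mg/L. With 5 mg/L it had 257, 119 and 119 CPM, and with 10 mg/L 29.7, 105 and 3.91 CPM. By deposited FPKM this was the most abundant member, with 4985 ± 2481 FPKM in the controls (SD, n = 3), and its lowest library was 10 mg/L replicate 3. The length implied by its counts and FPKM was only 115 bases, so this place rests on a very short length.

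Rank 4 had 783, 319 and 401 CPM in the controls and 165, 201 and 81.3 CPM with 2 mg/L. With 5 mg/L it had 66.8, 73.3 and 72.3 CPM, and with 10 mg/L 79.3, 102 and 256 CPM. The 5 mg/L libraries were close together, and the one near the controls was 10 mg/L replicate 3. Rank 5 had 454, 273 and 380 CPM in the controls and 107, 76.1 and 135 CPM with 2 mg/L. With 5 mg/L it had 169, 0 and 84.0 CPM, and with 10 mg/L 60.3, 129 and 88.5 CPM. It was listed at 0 in 5 mg/L replicate 2 alone, while the other 8 cadmium libraries lay from 60.3 to 169 CPM.

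The 2 members with the largest differences were Cluster-27942.95851 (rank 27) and Cluster-27942.111680 (rank 10). Cluster-27942.95851 had 81.2, 66.9 and 74.7 CPM in the controls and 29.2, 0 and 0.23 CPM with 2 mg/L. With 5 mg/L it had 0, 20.4 and 9.24 CPM, and with 10 mg/L 3.58, 0 and 0.065 CPM. Its controls were close together at 74.3 ± 7.12 CPM (SD, n = 3), and its cadmium libraries ranged from 0 to 29.2 CPM within 1 dose. The difference was 4.53 on the log2(CPM + 1) scale and 6.19 with a pseudocount of 0.1, since 3 libraries were at 0. Cluster-27942.111680 had 91.5, 238 and 185 CPM in the controls and 12.9, 48.8 and 1.76 CPM with 2 mg/L. With 5 mg/L it had 32.3, 0.44 and 14.2 CPM, and with 10 mg/L 0.078, 3.95 and 19.5 CPM. Its difference was 4.30, and every dose held both a library above 10 CPM and one below 5 CPM.

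The members with the widest margins were not those with the most reads, and they were picked after their values were seen. The widest, rank 65, had 18.7, 16 and 44.1 CPM in the controls and 1.01, 4.67 and 2 CPM at 2 mg/L. It had 2.06, 1.62 and 0.28 CPM at 5 mg/L and 0.99, 0.34 and 1.01 CPM at 10 mg/L. Its lowest control was 3.42 times its highest cadmium library, and its ratio of means, 16.9, was the largest among the members. The next, rank 23, had 56.3, 114 and 82.0 CPM in the controls and 0.40 to 18.4 CPM in the cadmium libraries, a margin of 3.05. The third, rank 56, had 27.7, 24.1 and 41.6 CPM in the controls and 2.45 to 8.83 CPM in the cadmium libraries, a margin of 2.73. Both cadmium ranges ended well below the lowest control.

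**Figure D3:**
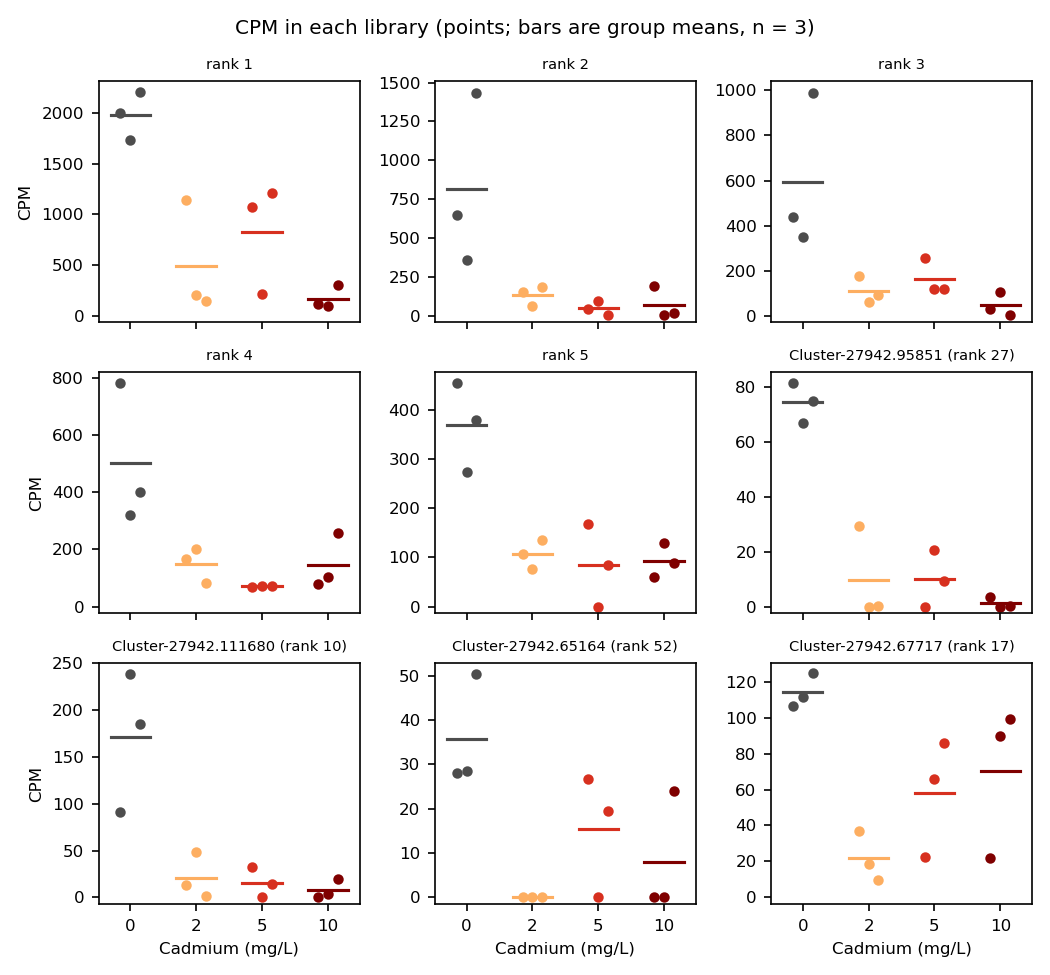
CPM in each library (points) with the group mean (bar, n = 3) for the 5 members with the most control reads and the 4 members given by identifier, against cadmium in mg/L. Controls stand above all cadmium libraries in each panel by the choice of members; Cluster-27942.65164 is at 0 in all 2 mg/L libraries and Cluster-27942.67717 reaches 99.4 CPM at 10 mg/L, just under its lowest control of 107 CPM.

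The libraries of a dose differed in how low the members lay. Relative to the control mean, the median member was at -1.14, -1.45 and -2.06 on the log2(CPM + 1) scale in the 2 mg/L replicates. It was at -1.07, -1.94 and -1.86 in the 5 mg/L replicates and at -1.93, -1.67 and -1.69 in the 10 mg/L replicates. The same median over all clusters in the CPM range stayed between -0.15 and 0.24 in every cadmium library. Of the 9 cadmium libraries, 5 mg/L replicate 1 was the highest in 30 members and 2 mg/L replicate 1 in 29. These 2 libraries were the highest in 6.62% and 16.1% of all clusters in the CPM range. Within its dose, 5 mg/L replicate 1 was the highest in 83 members (70.9%), against 27.0% of clusters in the range. 2 mg/L replicate 1 was the highest of its dose in 66 members (56.4%), against 48.7%. The part of any feature of these 2 libraries in this order was not tested. 10 mg/L replicate 3 had the lowest TMM scaling factor, 0.811, and its median for the members, -1.69, was next to the -1.67 of replicate 2. Still, replicate 3 was the highest of its dose in 52 members (44.4%), against 26.1% of clusters in the range. Without it 132 clusters met the rule, 113 of the members among them.

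**Figure D4:**
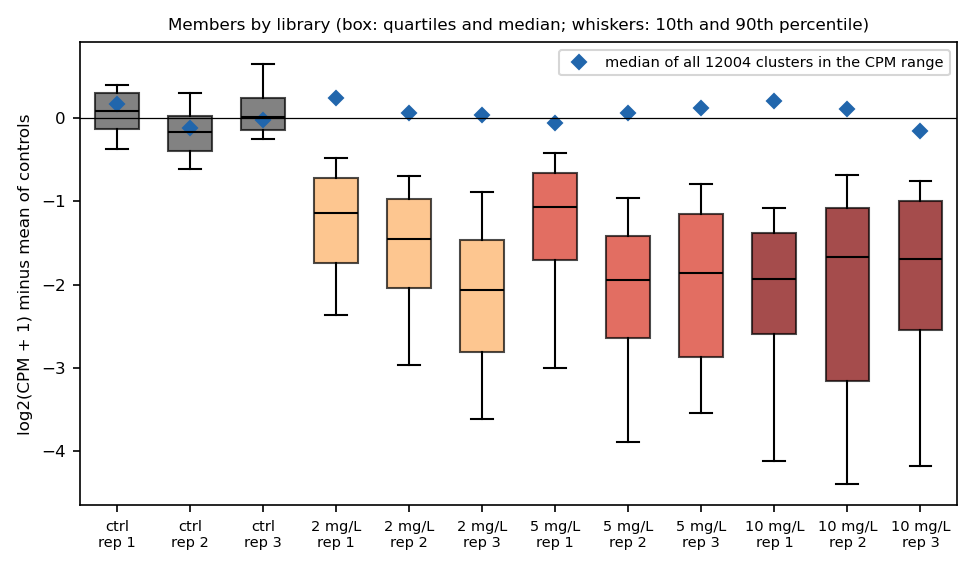
Members in each library as log2(CPM + 1) minus the mean of the 3 controls (boxes: quartiles and median; whiskers: 10th and 90th percentile), with the median of all clusters in the CPM range (diamonds). The diamonds stay between -0.15 and 0.24, and the boxes of 2 mg/L replicate 1 and 5 mg/L replicate 1, with medians of -1.14 and -1.07, are the nearest of the cadmium libraries to the controls.

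Spread of the members among replicates was larger in the cadmium groups than in the controls. The median coefficient of variation of the members was 23.4% in the controls and 47.4%, 56.3% and 53.9% in order of dose. Over all clusters in the CPM range it was 34.5%, 33.8%, 40.1% and 48.4%. The rule asks for 3 controls above all other libraries, which favours clusters with close controls, so the low control value is no finding. It also picks low cadmium levels, with a mean under 5 CPM over the 9 cadmium libraries in 35 members. How far low levels account for the larger spread in the cadmium groups was not tested, so that spread is not given as a finding. Over the 9 cadmium libraries together the median was 54.3% for the members and 51.7% for clusters in the range.

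By the rule no member can have a control at 0. At least 1 cadmium library was at 0 in 25 members (21.4%), against 23.3% of the clusters in the CPM range. In 4 members at least 4 libraries were at 0, and the largest number was 6. In 3 members all libraries of 1 dose were at 0, a different dose in each. Cluster-27942.65164 (rank 52) had 28.0, 28.6 and 50.3 CPM in the controls and 0 counts in all 3 libraries at 2 mg/L. It had 26.8, 0 and 19.5 CPM at 5 mg/L and 0, 0 and 23.9 CPM at 10 mg/L. Its level was thus either 0 or at least 19.5 CPM, and at 10 mg/L it rested on replicate 3 alone. Against a limit of 3 counts over the 2 mg/L group, the control mean was at least 596-fold higher, for counting error only. The 5 mg/L mean was at least 258-fold higher on that limit. Variation among libraries is not covered by these bounds, and the rule used the contrast with controls. Rank 86 had 14.6, 22.8 and 11.4 CPM in the controls, 0, 0 and 7.93 CPM at 2 mg/L, 0 counts at 5 mg/L and 7.05, 4.83 and 0 CPM at 10 mg/L. Rank 66 had 21.6, 13.4 and 38.3 CPM in the controls, 4.74, 3.86 and 1.11 CPM at 2 mg/L, 0, 0 and 5.84 CPM at 5 mg/L and 0 counts at 10 mg/L. On the same limit, again for counting error only, the controls were at least 333-fold above 5 mg/L for the former. For the latter they were at least 401-fold above 10 mg/L.

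Each dose was next set beside the controls, as a description, since the members were chosen on this contrast. The 3 comparisons share the same controls. On the log2(CPM + 1) scale the members lay below the controls by a median of 1.62, 1.74 and 1.83 for 2, 5 and 10 mg/L. The difference was at least 1 in 101, 105 and 109 of the 117 members and at least 2 in 37, 44 and 51. The smallest differences were 0.53, 0.52 and 0.81 in the same order. The members were not tested on these contrasts. As the background of such calls, the edgeR quasi-likelihood test (adjusted p under 0.05) called 0.007%, 0.0% and 0.00525% of all 57151 tested clusters as lower with 2, 5 and 10 mg/L.

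The rule did not compare the cadmium doses with each other, and differences between them were tested in the same fit. It did keep every cadmium library below the lowest control, which limits how far 1 dose can lie above another in a member. The fit also took its spread from the controls, and the rule favours close controls, so p-values of the members can be too low. None of the 117 members was called between any 2 doses by the edgeR quasi-likelihood test (Benjamini-Hochberg adjusted over all clusters), while 0.0105%, 0.0105% and 0.0122% of all tested clusters were called for 5 against 2, 10 against 5 and 10 against 2 mg/L. The smallest adjusted p of a member was 0.822, 0.481 and 0.270 in the same order. Unadjusted p was under 0.05 in 4 members for 5 against 2 mg/L (3.42%), against 6.01% of the tested clusters in the CPM range. It was under 0.05 in 12 members for 10 against 5 mg/L (10.3%), against 9.52%, and in 15 members for 10 against 2 mg/L (12.8%), against 14.1%. These shares are near or below the background. DESeq2 called 3, 3 and 7 members in these comparisons (2.56%, 2.56% and 5.98%), against 2.0%, 3.27% and 5.13% of all tested clusters. These shares are near each other, but the latter also cover clusters outside the CPM range. A DESeq2 share for clusters in the range is not given here. Cluster-27942.65164 and the members of ranks 86 and 66, each at 0 in all libraries of 1 dose, were among those called. For any difference among the 3 doses edgeR called 0 members and 0.0192% of all clusters, and unadjusted p was under 0.05 in 8 members (6.84%) against 11.5%. DESeq2 called 3 for it (2.56%), against 3.76% of all tested clusters. A slope on log2 dose over the 9 cadmium libraries called 0 members and 0.0% of clusters by edgeR. Unadjusted p for the slope was under 0.05 in 8 members (6.84%) against 10.8%, and DESeq2 called 3 (2.56%), against 2.98%. The edgeR counts of 0 do not show that the doses were alike.

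The numbers with an unadjusted p under 0.05 moved with single libraries. For 5 against 2 mg/L edgeR gave 9 without 2 mg/L replicate 1, 2 without 2 mg/L replicate 3, 10 without 5 mg/L replicate 1 and 7 without 5 mg/L replicate 3, in place of 4. Without 10 mg/L replicate 3 there were 19 for 10 against 5 mg/L in place of 12, 22 for 10 against 2 mg/L in place of 15 and 19 for any difference in place of 8. Calls over all clusters moved too in that fit, to 199, 159 and 189 in the same order, from 6, 7 and 11. For the slope there were 2 without 2 mg/L replicate 2 and 3 without 10 mg/L replicate 2, in place of 8. Leaving all controls out of the fit lowered the numbers too. They were then 2 for 5 against 2 mg/L in place of 4 and 6 for 10 against 5 mg/L in place of 12. For 10 against 2 mg/L there were 10 in place of 15, and for any difference 4 in place of 8. In each of these fits 0 members had an adjusted p under 0.05.

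The size of the differences between doses was set beside that of other clusters, to which the rule's limit on the highest cadmium library did not apply. Lower shares in the members can therefore come from the rule. The median log2 fold change of the members was -0.07 for 5 against 2 mg/L, -0.07 for 10 against 5 mg/L and -0.12 for 10 against 2 mg/L. Over the tested clusters in the CPM range the medians were -0.07, 0.06 and 0.02. The log2 fold change was at least 1 in size in 15, 31 and 34 members (12.8%, 26.5% and 29.1%), against 21.8%, 25.5% and 31.3% of clusters in the range. Groups of 3 libraries did not overlap in 7 members for 5 against 2 mg/L (5.98%), against 13.9% of clusters in the range. They did not overlap in 12 members (10.3%) for 10 against 5 mg/L, against 11.8%, and in 15 members (12.8%) for 10 against 2 mg/L, against 20.2%. Of these 15, 14 were lower at 10 mg/L and 1 was higher. Over the clusters in the range 13.0% were lower and 7.14% higher without overlap. The mean was lowest at 10 mg/L in 51 members (43.6%), at 5 mg/L in 37 and at 2 mg/L in 29 (24.8%). Over the clusters in the range it was lowest at 10 mg/L in 34.6% and at 2 mg/L in 32.3%. It went down from 2 through 5 to 10 mg/L in 31 members (26.5%, against 21.8% in the range) and up in 18 (15.4%, against 19.7%).

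**Figure D5:**
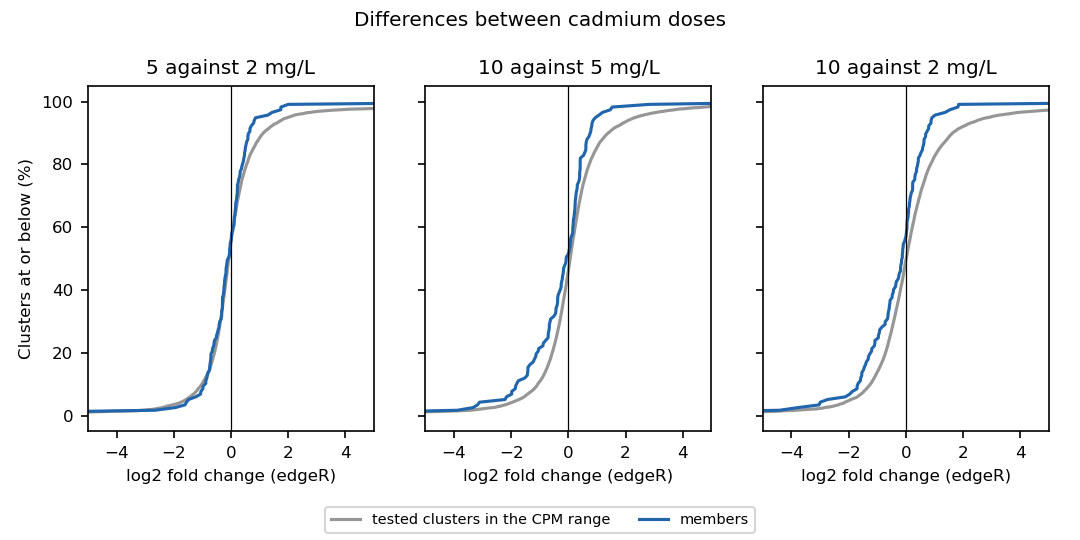
Share of clusters (vertical, %) at or below a given log2 fold change (horizontal, edgeR) between cadmium doses, for the 117 members (blue) and the tested clusters in the CPM range (grey). The curves lie close together for 5 against 2 mg/L over most of their height, and for 10 against 2 mg/L the members lie slightly to the left, with medians of -0.12 and 0.02.

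The member with the lowest p for a decrease was the same for 10 against 2 and 10 against 5 mg/L, rank 99. It had 16.2, 9.20 and 12.05 CPM in the controls and 7.14, 9.02 and 5.28 CPM at 2 mg/L. It had 3.24, 3.51 and 7.65 CPM at 5 mg/L and 2.04, 1.58 and 1.30 CPM at 10 mg/L. The 10 mg/L libraries lay below all others. The log2 fold change for 10 against 2 mg/L was -2.11 with a standard error of 0.42 (edgeR adjusted p = 0.270). For 10 against 5 mg/L it was -1.53 with a standard error of 0.42 (edgeR adjusted p = 0.481). DESeq2 called both.

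The member of rank 36, picked after its values were seen, also lay lower at higher doses. It had 68.3, 46.5 and 65.9 CPM in the controls and 33.4, 28.8 and 33.4 CPM at 2 mg/L. It had 19.6, 17.8 and 14.4 CPM at 5 mg/L and 11.5, 14.9 and 14.3 CPM at 10 mg/L. Libraries of 2 mg/L did not overlap with those of the other doses, and those of 5 and 10 mg/L overlapped. The log2 fold change for 10 against 2 mg/L was -1.20 with a standard error of 0.31 (edgeR adjusted p = 0.372). DESeq2 called this comparison, 5 against 2 mg/L, any difference among the doses and the slope, and not 10 against 5 mg/L.

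The lowest p for an increase from 2 to 10 mg/L belonged to Cluster-27942.67717 (rank 17), with 107, 111 and 125 CPM in the controls and 36.9, 18.5 and 9.93 CPM at 2 mg/L. It had 22.3, 65.9 and 86.0 CPM at 5 mg/L and 22.0, 89.9 and 99.4 CPM at 10 mg/L. One library at each of the higher doses was as low as those of 2 mg/L, and the others lay from 65.9 to 99.4 CPM. The log2 fold change was 1.85 with a standard error of 0.69 (edgeR adjusted p = 0.423), and 1.25 without 10 mg/L replicate 3. Cluster-27942.65164, at 0 in every 2 mg/L library, had the lowest p for an increase from 2 to 5 mg/L (edgeR adjusted p = 0.822). DESeq2 called it for 5 against 2 mg/L, for 10 against 2 mg/L and for the slope, with all 2 mg/L libraries and 1 or more of each other dose at 0.

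The member of rank 82 had the lowest p for a decrease from 2 to 5 mg/L and for an increase from 5 to 10 mg/L. It had 17.4, 21.5 and 17.6 CPM in the controls and 11, 4.55 and 3.39 CPM with 2 mg/L. With 5 mg/L it had 0.90, 1.38 and 0.59 CPM, and with 10 mg/L 3.79, 17.0 and 1.19 CPM. The 5 mg/L libraries were uniformly low, while 1 library at 10 mg/L overlapped with them and another was close to the controls. The log2 fold changes were -2.65 and 2.83, each with a standard error of 0.83 (edgeR adjusted p = 0.822 and 0.516). DESeq2 called the increase and not the decrease.

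Identifiers consist of 2 numbers, and all 117 members shared the first number 27942, as did 99.2% of the clusters in the CPM range. In the second number some members were neighbours. Counting identifiers at most 10 apart, 24 members fell into 11 sets, 10 of them pairs and 1 of 4 members. Of the 374 neighbours of members in the CPM range, counted once per member, 32 (8.56%) were members, against 0.975% of all clusters in the range. Over the 9 cadmium libraries the 16 pairs within these sets had a median Spearman correlation of 0.90, from -0.30 to 1, and 13 were at least 0.7. All 6786 pairs of members had a median of 0.17, and neighbouring pairs of clusters in the CPM range had a median of 0.07. These correlations share 9 libraries and their depths. Whether neighbours share reads was not tested, and 32.0% of the nonzero counts of members were whole numbers exactly as deposited (30.1% in the CPM range). For such sets a shared level and a division of the same reads cannot be told apart.

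The set of 4 comprised ranks 30, 34, 57 and 67, with control means of 66.9 ± 13.3, 61.3 ± 13.0, 30.3 ± 7.05 and 24.4 ± 4.89 CPM (SD, n = 3 each). Their pairwise correlations ran from 0.83 to 0.95 and their differences from the controls from 1.79 to 1.85. Each had its lowest value in 5 mg/L replicate 3, at 4.89, 2.95, 1.68 and 1.1 CPM. Means at the 3 doses were 20.2 ± 7.91, 18.3 ± 12.7 and 22.0 ± 11.9 CPM for the member of rank 30 (SD, n = 3 each), closer to each other than the libraries of a dose. Cluster-27942.111680 and the member of rank 23 formed a pair with a correlation of 0.90. Cluster-27942.95851 and the member of rank 9 formed a pair with a correlation of 0.41. The latter had 213, 141 and 195 CPM in the controls and 110, 102 and 9.03 CPM with 2 mg/L. With 5 mg/L it had 30, 45 and 16.4 CPM, and with 10 mg/L 11.1, 0 and 0.13 CPM. Both members of that pair were at 0 in 10 mg/L replicate 2 and under 1 CPM in 10 mg/L replicate 3.

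Lengths implied by each cluster's deposited count and FPKM, which need not equal the length of its sequence, had a median of 1430 bases for the members. Their quartiles were 607 and 2313 bases. For clusters in the CPM range the median was 1828 bases, with quartiles of 853 and 3127 bases. Control FPKM of the members ran from 1.98 to 4985 with a median of 32.8, so their order per length differed from that by reads. The member of rank 5, for example, stood in place 29 by FPKM. The member of rank 90 stood in place 3, but with an implied length of 10.4 bases, so places that rest on such short lengths are uncertain.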

How the data were processed

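Tissue was flash frozen and RNA extracted with Tri Reagent, with Illumina libraries, per the labels' protocols. The deposited files give, for each gene cluster, an estimated count that is not normalized and an FPKM (scaled by sequence length and depth), per the file headers. No label or file header names the assembler, aligner, counting tool or filters. Members were found from CPM of the deposited counts. The members, comparisons and alternatives were chosen with earlier results of these data known.

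For tests, estimated counts were rounded to whole numbers, filtered with filterByExpr (minimum count 10, minimum total 15), which kept 57151 clusters with 98.6% of the counts and all 117 members, scaled by TMM and fitted with edgeR 4.0.16 (quasi-likelihood, 1 coefficient for each of 4 groups, 12 libraries). The slope was fitted to 9 libraries and 48862 clusters. Clusters were called at a Benjamini-Hochberg adjusted p under 0.05. The common biological coefficient of variation was 1.12. Each standard error is the log2 fold change divided by the square root of its F value. On simulated counts the edgeR fit recovered nearly all large changes at a low spread between replicates. It recovered none when every cluster was given the common value of 1.12. Within a dose the members had a lower median coefficient of variation, 47.4% to 56.3%, so neither setting shows what the fit could find among them. A count of 0 calls does not show that groups were alike. Samples were grouped by their titles. Identifiers printed are the 2 members with the largest difference and the 2 with the largest fitted rise from 2 to 10 mg/L. Values in every library are given for the 5 members highest in control CPM and those of lowest p in each direction of each dose comparison. The members nearest the rule's thresholds are treated likewise, clusters just outside in part, and members picked otherwise are marked in the text. Implied lengths used values of at least 20 counts and 1 FPKM. Alternatives were DESeq2 1.42.0, limma-voom (limma 3.58.1), other scalings and filters, other samples in the fit, the replicate number as a block, other thresholds of the rule and each library left out. R 4.3.3 and Python 3.11.15 were used.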

Additional observations from a re-analysis of the deposited data

How the results depend on the processing

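The number of clusters meeting the rule was 117. It was 234 with a mean from 1 CPM, 72 with a mean from 10 CPM and 43 with a difference of at least 2, as looser or tighter thresholds give. With TMM-scaled CPM it was 152, of which 102 were members, with DESeq2 size factors 139 (100 members), with FPKM 126 (105 members) and with a pseudocount of 0.1 124 (all 117 members). With each library left out it ran from 119 to 235. It was 191, 235 and 224 without control replicates 1, 2 and 3, since fewer controls have to lie above the cadmium libraries. Between doses edgeR called 0 members with each library left out (0 to 0), under every other scaling and filter run, in the 9 cadmium libraries alone and for the slope in mg/L. Limma-voom called 0 in the 4 comparisons it was run on. DESeq2 called 3 members for 5 against 2, 3 for 10 against 5, 7 for 10 against 2, 3 for any difference and 3 for the slope, where it called 2.0%, 3.27%, 5.13%, 3.76% and 2.98% of all clusters, and the cause was not tested. Calls were 0 with the replicate number as a block. Whether the numbers pair the samples is not settled. Over 18 pairs of libraries with equal numbers, deviations from the group means correlated between -0.098 and 0.064. Of the 12 libraries, 5 correlated best with a library of their own number in another group. The smallest adjusted p of a member outside DESeq2 was 0.0632, for 10 against 5 mg/L without 10 mg/L replicate 3. Without that library Cluster-27942.65164 is at 0 in both groups and gives no value for 10 against 2 mg/L. Depth limits what can be said of libraries at 0.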
